A study of Mus musculus with 12 samples.

Results

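The 33 genes described here are products of the visceral endoderm, the epithelium that forms the outer wall of the mouse yolk sac. They were taken as a list of gene symbols (secreted carriers, apolipoproteins, endocytic receptors, coagulation factors and their regulators), and every array probe whose platform annotation gave 1 of these symbols was used. Of the 33 genes, 32 had a probe, and they held 49 of the 45281 probes on the array. Soat2, an enzyme that esterifies cholesterol, was not analysed here, since the annotation used pairs no probe with it. A probe was tested if its detection p-value was under 0.01 on at least 3 of the 12 arrays, which left 26 of the 33 genes with 37 probes, among 10764 tested genes of the 19057 named on the array. Each gene was then taken at its probe with the highest mean signal.

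The visceral endoderm feeds the embryo before the placenta works. Its cells take up maternal proteins through the cubilin, amnionless and megalin receptors, break them down in lysosomes, and secrete carriers and lipoproteins much as the later liver does. Hepatic regulators such as HNF4A drive this secretory programme, and descendants of the visceral endoderm also mix into the epithelium of the early gut.

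RNA came from 12 C57BL6/J mouse embryos at 8.5 days post coitum, with 1 Illumina BeadChip array each. Wild-type embryos and embryos without both copies of Cited2, a transcriptional co-activator gene needed for heart and left-right development, came from heterozygous mothers mated to heterozygous fathers. The mothers were put on 1 of 2 formulated diets, high-fat or control, at 6 weeks of age, ate it for 8 weeks before mating and kept to it through pregnancy, which gave 4 groups of 3 embryos. The labels' protocols state that each embryo was taken out of its yolk sac, lost its allantois, and had its somites counted to match stages. They name the samples as separate embryos but do not say which shared a mother, so the p-values below measure the spread between these embryos. Cited2 itself was detected in all 6 wild-type embryos, with deposited signals between 1616 and 4210. In the knockouts its signal was between -3.5 and 10 in 5 embryos, and was 119.7 and detected in knockout high-fat replicate 3. The arrays detected between 16584 and 18853 probes each, and correlated with each other at 0.953 to 0.993. They fell into 2 sets of 6 by the bead-to-bead variation of bright probes, named A and B here, with median coefficients of variation of 18.01% to 20.5% and 21.4% to 23.8%. The split was made after the data had been seen, at the largest gap between arrays (0.967 percentage points against 0.880 for the next). Over all detected probes the split differed. In the deposited order of samples, set A was the first 6 and set B the last 6. The first principal component, with 47.7% of the variance, lay between -43.0 and -17.5 in set A and between 16.1 and 48.7 in set B. Set A held the embryos numbered 1 of all groups together with replicates 2 from mothers on high-fat food, and the remaining 6 formed set B, so each set had 3 knockout and 3 wild-type embryos. The sets were not balanced by diet. In each genotype set A held more high-fat and set B more control-diet embryos, so diet contrasts over both sets are partly mixed with the set.

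Afp, alpha-fetoprotein, the carrier best known as a marker of visceral endoderm, was not detected on any of the 12 arrays at its single probe. Fgb, Maf and S100g were likewise detected on no array, while Rbp4 and Cubn were detected on 2 arrays each and fell short of the filter. Whether those probes can report their transcripts in such tissue was not tested. Of the 26 tested genes, 18 were detected on all 12 arrays and 8 on some of them. They are called below the tested members of the list, and which cells their transcripts came from was not tested. On an array where a gene was not detected its value has only an upper bound, so the ranges of those 8 genes are lower bounds.

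The outstanding feature of the tested members was how widely they differed between embryos of the same group. The within-group standard deviation (SD) of their log2 signal had a median of 0.94, against 0.22 over all 10764 tested genes. Their range over the 12 embryos had a median of 2.89 log2 units, against 0.74 over all tested genes. The range was over 2 log2 units for 21 of the 26, against 3.33% of all tested genes (358 of 10764). For 22 members the SD lay above the 90th percentile of all tested genes, and for 14 above the 99th. The 4 below the 90th percentile were Dab2 (87.1%), Tmprss2 (85.9%), F2 (85.3%) and Lrp2, megalin, whose SD of 0.22 was larger than that of 51.5% of tested genes. Over the 18 members detected on all arrays the median SD was 0.90, the median range was 2.89, and 14 had a range over 2. The members were chosen with earlier results of these data known, so these values describe the list and are no test of it.

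**Figure D1:**
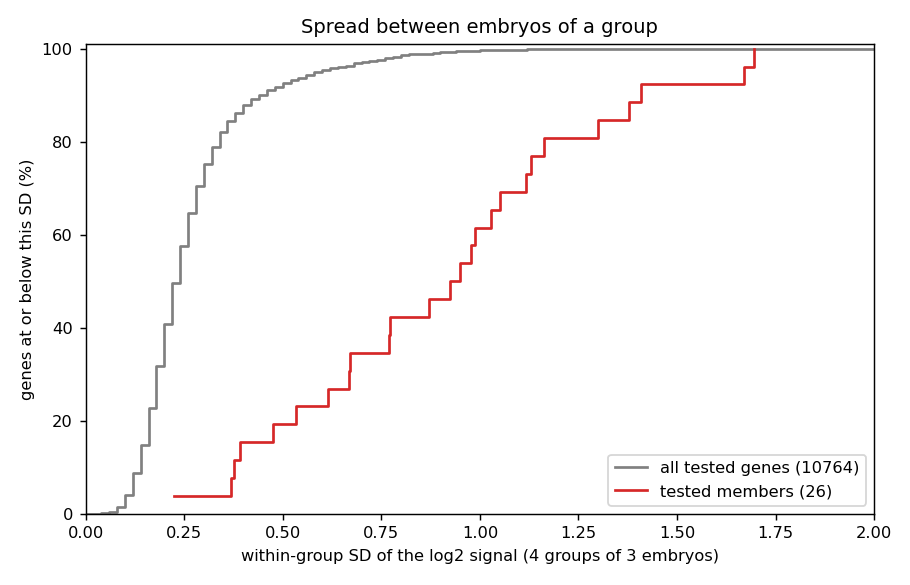
Cumulative share of genes (vertical axis, %) by their within-group SD of log2 signal over 4 groups of 3 embryos (horizontal axis, log2 units). The grey line holds all 10764 tested genes, with a median of 0.22, and the red line the 26 tested members, with a median of 0.94.

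Much the same embryos were high or low for each tested member. Knockout high-fat replicate 3 had the highest value for 25 of the 26 tested members, and knockout control replicate 3 for the remaining 1, Lrp2. Both of these embryos were among the top 3 for 26 of 26 members, and wild-type high-fat replicate 1 for 18. At the low end, over the 18 members detected on all arrays, wild-type control replicate 1 was lowest for 8, wild-type high-fat replicate 3 for 8 and wild-type control replicate 2 for 2. The median deviation of the members from their own means over the 12 embryos was -0.86, -0.72 and 0.15 log2 units in wild-type control replicates 1 to 3, and 0.69, 0.04 and -0.97 in the wild-type high-fat replicates. It was -0.63, 0.01 and 1.14 in the knockout control replicates, and -0.29, 0.26 and 1.65 in the knockout high-fat replicates. High and low embryos occurred in both genotypes and on both diets. The same deviation over all tested genes stayed between -0.09 and 0.09. Knockout high-fat replicate 3, the highest embryo, is the knockout in which Cited2 signal was detected. In bulk embryos, fewer cells of a type and less RNA per cell cannot be told apart.

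**Figure D2:**
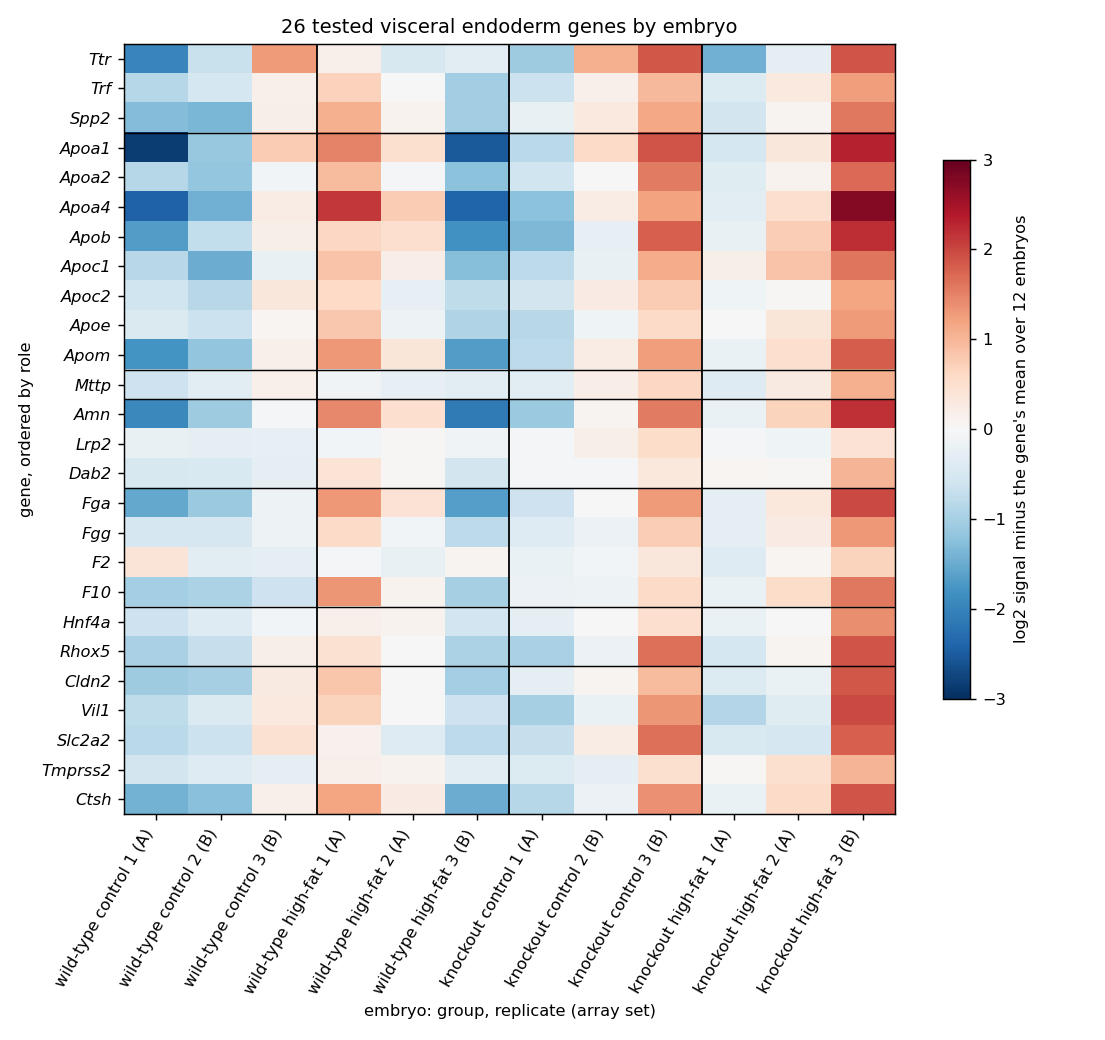
Log2 signal of each tested member (rows, ordered by role, with lines between roles) in each of the 12 embryos (columns, with the array set in brackets) minus the gene's mean over the embryos, from blue (low) to red (high). The columns of knockout high-fat replicate 3 and knockout control replicate 3 are red in nearly every row, and those of wild-type control replicate 1 and wild-type high-fat replicate 3 are blue.

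The promoters of the listed genes were searched for short motifs, which were chosen with earlier results of these data known. Whether these motifs bear on the shared order of the embryos was not tested. RefSeq promoter windows (GRCm38.p6, from 250 bases before to 50 bases after a start) were found for 27 of the 33 genes, and both strands were searched. The letters GTTAAT, an arm of the palindromic site of the hepatic factor HNF1 (ATTAAC on the other strand), were in windows of 8 of these 27 genes, which is 29.6%, against 8.24% of 27025 genes. These 8 were F2, Hnf4a, Fga, Fgb, Afp, Apoc2, Apoe and Dab2. The TATA box letters TATAAA were in windows of 7 of 27 genes (25.9%, against 15.7%), and the GATA letters AGATAA in 3 of 27 (11.1%, against 12.7%). The letters CAAAGTC, a core of the HNF4 site, were in 0 of 27, against 5.00% of genes, which says only that these letters are not in these windows. The 5 windows below hold the 120 bases before a start, 5′ to 3′, of 5 of these 8 genes, chosen to set tested members beside undetected ones, and capitals mark these letters and TATAAA. The Hnf4a window, at chr2:163547035-163547154 on the plus strand, has the letters as a pair, and in no window do capitals of different motifs share a base. The Fga window lies at chr3:83026033-83026152 on the plus strand and the Fgb window at chr3:83049864-83049983 on the minus strand. The Afp window lies at chr5:90490594-90490713 on the plus strand and the Apoc2 window at chr7:19677942-19678061 on the minus strand.
Hnf4a: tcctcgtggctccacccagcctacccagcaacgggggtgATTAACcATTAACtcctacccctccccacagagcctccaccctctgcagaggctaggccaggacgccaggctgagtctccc
Fga: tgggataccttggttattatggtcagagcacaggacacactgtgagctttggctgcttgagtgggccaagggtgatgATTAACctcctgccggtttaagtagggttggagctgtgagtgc
Fgb: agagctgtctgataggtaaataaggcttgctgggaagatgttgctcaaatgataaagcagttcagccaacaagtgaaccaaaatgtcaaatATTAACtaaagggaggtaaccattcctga
Afp: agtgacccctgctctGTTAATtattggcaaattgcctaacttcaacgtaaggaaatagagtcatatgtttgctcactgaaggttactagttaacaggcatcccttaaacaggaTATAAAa
Apoc2: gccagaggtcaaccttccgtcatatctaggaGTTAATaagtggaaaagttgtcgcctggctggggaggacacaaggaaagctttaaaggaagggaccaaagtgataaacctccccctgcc
Such a match is a description of letters, not a site, and it was shared by genes with and without signal, since Hnf4a, Fga and Apoc2 were tested while Afp and Fgb were detected on no array.

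Among the secreted carriers, levels are given as normalized log2 signal, with replicates 1 to 3 of each group in order. Ttr measured 8.16, 9.49 and 11.42 in the wild-type control-diet embryos, 10.31, 9.66 and 9.81 in the wild-type high-fat embryos, 9.08, 11.22 and 12.02 in the knockout control-diet embryos and 8.71, 9.86 and 12.02 in the knockout high-fat embryos. Ttr encodes transthyretin, which carries thyroxine and retinol-binding protein, and its values spanned 14.5-fold. They were lowest in wild-type control replicate 1 and highest in both knockout replicates numbered 3, and the groups overlapped. Trf measured 5.86, 6.19 and 6.88 in the wild-type control-diet embryos, 7.42, 6.71 and 5.67 in the wild-type high-fat embryos, 6.08, 6.89 and 7.69 in the knockout control-diet embryos and 6.32, 7.01 and 7.97 in the knockout high-fat embryos. Transferrin, the iron carrier encoded by Trf, showed the low values in wild-type control replicate 1 and wild-type high-fat replicate 3. Spp2 measured 5.16, 5.09 and 6.65 in the wild-type control-diet embryos, 7.54, 6.58 and 5.42 in the wild-type high-fat embryos, 6.25, 6.76 and 7.63 in the knockout control-diet embryos and 5.92, 6.55 and 8.06 in the knockout high-fat embryos. Spp2, a secreted phosphoprotein, was undetected on 1 array and low in wild-type control replicates 1 and 2.

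The other carriers stayed near background. Afp measured 4.36, 4.53 and 4.62 in the wild-type control-diet embryos, 4.76, 4.34 and 4.40 in the wild-type high-fat embryos, 4.46, 4.51 and 4.65 in the knockout control-diet embryos and 4.43, 4.37 and 4.77 in the knockout high-fat embryos. None of these 12 Afp values was a detected one. Rbp4 measured 4.42, 4.33 and 5.11 in the wild-type control-diet embryos, 4.71, 4.54 and 4.42 in the wild-type high-fat embryos, 4.66, 4.90 and 5.18 in the knockout control-diet embryos and 4.64, 4.53 and 5.22 in the knockout high-fat embryos. Rbp4, retinol-binding protein, was detected in 1 knockout control and 1 knockout high-fat embryo. S100g, a small calcium-binding protein, ranged from 4.30 to 4.51 with no detection.

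The apolipoproteins, protein parts of the particles that carry lipid out of the endoderm, were all tested, and 6 of the 8 were detected on every array. Apoa1 measured 7.76, 9.47 and 11.38 in the wild-type control-diet embryos, 12.09, 11.10 and 8.09 in the wild-type high-fat embryos, 9.80, 11.18 and 12.50 in the knockout control-diet embryos and 10.09, 10.95 and 12.91 in the knockout high-fat embryos. Apoa1 encodes the main protein of high-density lipoprotein and was detected on every array. Its levels spanned 35.5-fold, with wild-type control replicate 1 lowest and knockout high-fat replicate 3 highest. Apoa4 measured 4.61, 5.58 and 7.24 in the wild-type control-diet embryos, 9.15, 7.79 and 4.63 in the wild-type high-fat embryos, 5.80, 7.25 and 8.22 in the knockout control-diet embryos and 6.72, 7.52 and 9.78 in the knockout high-fat embryos. Apoa4, which associates with newly made lipoproteins, was undetected in 2 wild-type embryos. Those 2, wild-type control replicate 1 and wild-type high-fat replicate 3, have no order between them. Apob measured 5.60, 6.53 and 7.44 in the wild-type control-diet embryos, 7.89, 7.76 and 5.45 in the wild-type high-fat embryos, 5.93, 7.03 and 9.06 in the knockout control-diet embryos and 7.06, 8.02 and 9.48 in the knockout high-fat embryos. Apob is the structural protein of very-low-density lipoprotein, and the same knockout embryo was highest.

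Apoe measured 9.26, 9.04 and 9.74 in the wild-type control-diet embryos, 10.50, 9.55 and 8.78 in the wild-type high-fat embryos, 8.86, 9.56 and 10.28 in the knockout control-diet embryos and 9.69, 10.06 and 10.97 in the knockout high-fat embryos. Apoe, a ligand for lipoprotein receptors, had a narrower range of 2.19 log2 units. Apoc1 measured 7.33, 6.68 and 7.93 in the wild-type control-diet embryos, 9.004, 8.36 and 6.88 in the wild-type high-fat embryos, 7.38, 7.94 and 9.28 in the knockout control-diet embryos and 8.34, 9.005 and 9.77 in the knockout high-fat embryos. Apoc1, an exchangeable apolipoprotein, spanned 8.50-fold. Apoa2 ranged from 6.67 to 9.60, Apoc2, the cofactor of lipoprotein lipase, from 4.97 to 6.98, and Apom, which carries sphingosine 1-phosphate, from 9.65 to 13.27. Knockout high-fat replicate 3 was highest for all 8 apolipoproteins. Apoc1 and Apoe are adjacent genes in RefSeq with no protein-coding gene between them, and Apoa1 and Apoa4 have 1 gene between them. Mttp measured 5.17, 5.45 and 5.94 in the wild-type control-diet embryos, 5.68, 5.52 and 5.46 in the wild-type high-fat embryos, 5.47, 5.98 and 6.40 in the knockout control-diet embryos and 5.40, 6.04 and 6.84 in the knockout high-fat embryos. Mttp, the microsomal transfer protein that loads lipid onto apolipoprotein B, ranged over only 1.67 log2 units.

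The endocytic genes differed in range. Amn measured 8.00, 8.85 and 9.90 in the wild-type control-diet embryos, 11.38, 10.44 and 7.81 in the wild-type high-fat embryos, 8.83, 10.02 and 11.49 in the knockout control-diet embryos and 9.73, 10.61 and 12.13 in the knockout high-fat embryos. Amn encodes amnionless, the membrane partner that brings cubilin to the cell surface, and its levels spanned 20.03-fold with wild-type high-fat replicate 3 lowest and knockout high-fat replicate 3 highest. Lrp2 measured 10.27, 10.19 and 10.23 in the wild-type control-diet embryos, 10.40, 10.53 and 10.38 in the wild-type high-fat embryos, 10.42, 10.66 and 11.03 in the knockout control-diet embryos and 10.42, 10.36 and 10.93 in the knockout high-fat embryos. Megalin, encoded by Lrp2, spanned only 1.79-fold at its tested probe, while the other Lrp2 probes were detected on no array. Megalin is also made by other epithelia of the embryo, such as the neural ectoderm. Lrp2 was the member whose highest embryo was knockout control replicate 3. Dab2 measured 10.81, 10.82 and 10.99 in the wild-type control-diet embryos, 11.70, 11.33 and 10.74 in the wild-type high-fat embryos, 11.24, 11.25 and 11.61 in the knockout control-diet embryos and 11.35, 11.33 and 12.32 in the knockout high-fat embryos. Dab2, the clathrin adaptor of both receptors, ranged over 1.58 log2 units.

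Cubn measured 4.30, 4.30 and 4.58 in the wild-type control-diet embryos, 4.45, 4.42 and 4.30 in the wild-type high-fat embryos, 4.38, 4.48 and 5.20 in the knockout control-diet embryos and 4.42, 4.34 and 5.65 in the knockout high-fat embryos. Cubn encodes cubilin itself, and its probe was detected only in the replicates numbered 3 of both knockout groups, the 2 embryos that were highest for the list. A further Dab2 probe was detected on no array, and the 3 tested Dab2 probes did not move as 1. Over the 12 embryos the other 2 correlated with the brightest at 0.51 and 0.41, whereas in the 8 other genes with a further tested probe this correlation lay between 0.71 and 0.99. Knockout high-fat replicate 3 was highest at each of these further probes.

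Of the coagulation factors, the fibrinogen chains are encoded side by side. Fga and Fgg were tested, Fga ranging from 4.47 to 8.10 and Fgg from 5.62 to 7.71, while Fgb, between 4.33 and 4.55, was detected nowhere. Fgb measured 4.47, 4.38 and 4.44 in the wild-type control-diet embryos, 4.33, 4.38 and 4.40 in the wild-type high-fat embryos, 4.37, 4.41 and 4.38 in the knockout control-diet embryos and 4.38, 4.55 and 4.41 in the knockout high-fat embryos. In RefSeq no other protein-coding gene lies between Fga and Fgb or between Fga and Fgg. The 3 chains assemble into 1 protein. F10 measured 4.74, 4.82 and 5.15 in the wild-type control-diet embryos, 7.09, 5.86 and 4.76 in the wild-type high-fat embryos, 5.59, 5.61 and 6.34 in the knockout control-diet embryos and 5.57, 6.31 and 7.34 in the knockout high-fat embryos. F10, the factor that activates prothrombin, was detected in 1, 2, 3 and 3 embryos of the 4 groups in that order. Its values in the 3 wild-type control-diet embryos lay below those of all 3 knockout control-diet embryos, which was so for 2.19% of tested genes. F2 measured 5.85, 5.13 and 5.19 in the wild-type control-diet embryos, 5.41, 5.24 and 5.55 in the wild-type high-fat embryos, 5.26, 5.38 and 5.80 in the knockout control-diet embryos and 5.08, 5.52 and 6.14 in the knockout high-fat embryos. Prothrombin, encoded by F2, had its highest value in knockout high-fat replicate 3, followed by wild-type control replicate 1.

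Of the 3 regulators 2 were tested. Hnf4a measured 5.35, 5.59 and 5.89 in the wild-type control-diet embryos, 6.14, 6.08 and 5.41 in the wild-type high-fat embryos, 5.70, 5.99 and 6.48 in the knockout control-diet embryos and 5.79, 5.98 and 7.38 in the knockout high-fat embryos. HNF4A is the nuclear receptor of the hepatic and yolk sac programme, and its transcript spanned 4.08-fold. Rhox5 measured 8.50, 8.78 and 9.64 in the wild-type control-diet embryos, 9.93, 9.49 and 8.54 in the wild-type high-fat embryos, 8.51, 9.31 and 11.13 in the knockout control-diet embryos and 8.96, 9.56 and 11.36 in the knockout high-fat embryos. Rhox5, an X-linked homeobox gene expressed in extraembryonic tissues, spanned 7.24-fold, and knockout control and high-fat replicates 3 stood above the other 10 embryos. Maf measured 4.35, 4.32 and 4.42 in the wild-type control-diet embryos, 4.34, 4.45 and 4.38 in the wild-type high-fat embryos, 4.28, 4.28 and 4.28 in the knockout control-diet embryos and 4.35, 4.29 and 4.37 in the knockout high-fat embryos. Maf, a basic leucine zipper factor, was detected on no array.

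All 5 epithelial genes and enzymes were tested. Cldn2 measured 6.16, 6.24 and 7.51 in the wild-type control-diet embryos, 8.06, 7.23 and 6.20 in the wild-type high-fat embryos, 6.93, 7.31 and 8.17 in the knockout control-diet embryos and 6.82, 7.04 and 9.08 in the knockout high-fat embryos. Cldn2, a claudin of leaky tight junctions, was lowest in wild-type control replicate 1. Vil1 measured 4.70, 5.04 and 5.78 in the wild-type control-diet embryos, 6.15, 5.49 and 4.86 in the wild-type high-fat embryos, 4.47, 5.27 and 6.79 in the knockout control-diet embryos and 4.60, 5.10 and 7.45 in the knockout high-fat embryos. Villin, encoded by Vil1 and part of the microvillus core, was detected on 6 arrays, and replicates 3 of the knockout groups were its 2 highest. Slc2a2 measured 4.26, 4.43 and 5.54 in the wild-type control-diet embryos, 5.19, 4.67 and 4.28 in the wild-type high-fat embryos, 4.38, 5.28 and 6.72 in the knockout control-diet embryos and 4.62, 4.57 and 6.87 in the knockout high-fat embryos. Slc2a2, the glucose transporter GLUT2, was detected on 4 arrays, which were those of the knockout replicates numbered 3, knockout control replicate 2 and wild-type control replicate 3, all of set B. The other Slc2a2 probes were detected on at most 1 array and were not tested.

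Tmprss2 measured 9.65, 9.81 and 9.90 in the wild-type control-diet embryos, 10.34, 10.29 and 9.84 in the wild-type high-fat embryos, 9.77, 9.91 and 10.66 in the knockout control-diet embryos and 10.21, 10.67 and 11.21 in the knockout high-fat embryos. Tmprss2, a membrane serine protease, had its highest value in knockout high-fat replicate 3 and ranged over 1.56 log2 units. Ctsh, a lysosomal cathepsin, ranged from 7.97 to 11.35.

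**Figure D3:**
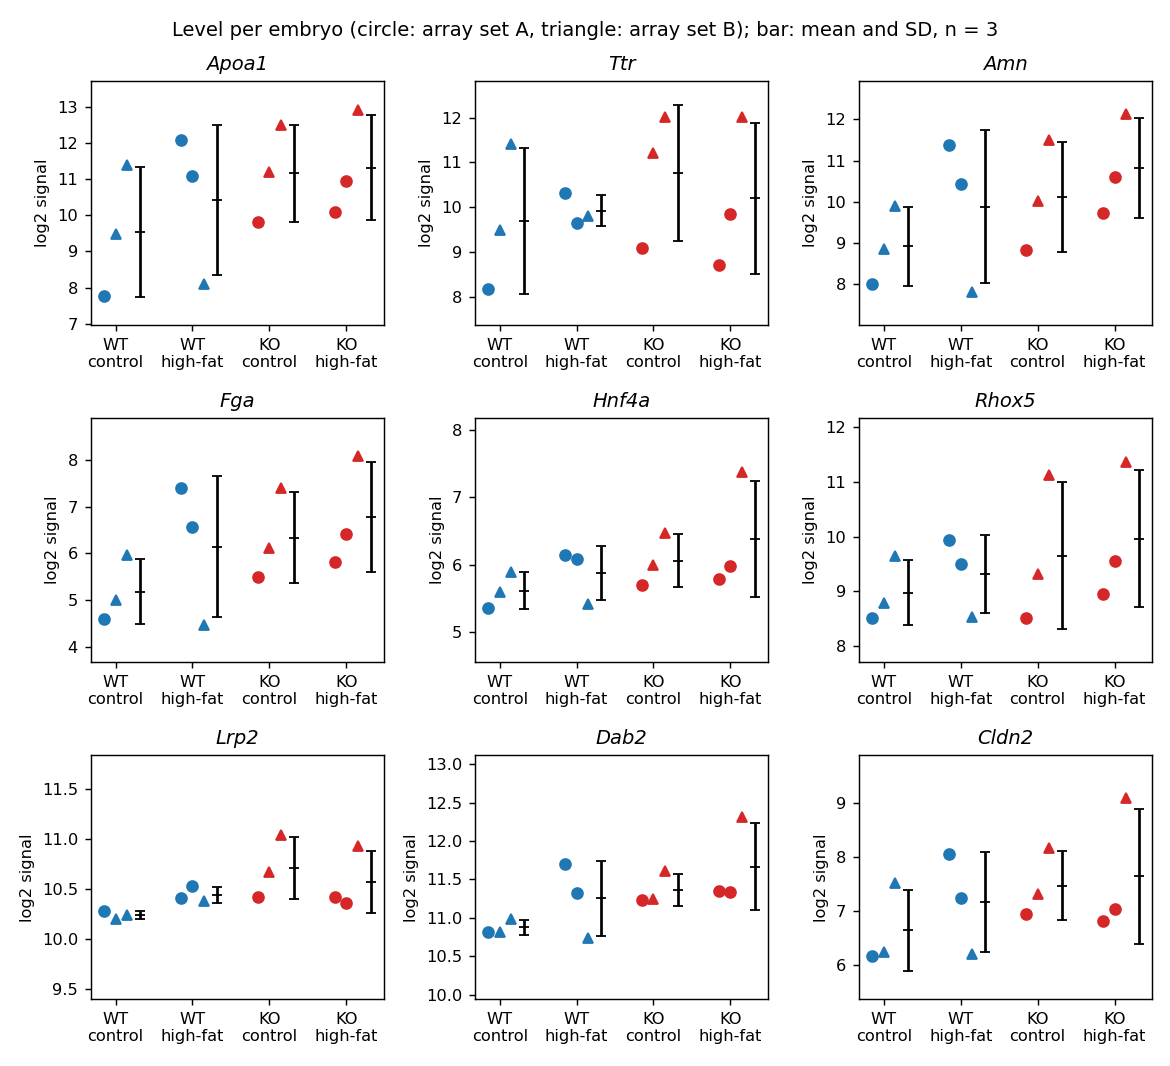
Log2 signal (vertical axes) of 9 members in each embryo by group (horizontal axes, WT wild type, KO Cited2 knockout), with circles for array set A and triangles for set B, and a bar for the group mean and SD (n = 3). The group bars overlap for most genes, while Lrp2 in the wild-type control-diet embryos (10.19 to 10.27) lies below all other groups.

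The likeness between members was measured over the 12 embryos as the correlation of each of 7 genes with Apoa1, with permutation p-values from 100000 permutations, two-sided and adjusted over the 7 relations by the Benjamini-Hochberg method. Pearson's r was 0.97 for Amn (adjusted permutation p = 3.5e-05) and 0.96 for Fga (3.5e-05), with Spearman's rho of 0.92 and 0.92 (both 0.000112). It was 0.93 for Cldn2 (3.5e-05), 0.89 for Rhox5 (5.6e-05) and 0.87 for Hnf4a (3.5e-05), with rho of 0.99, 0.95 and 0.95 (each 0.000112). For Ttr, r was 0.80 (adjusted permutation p = 0.00173) and rho 0.87 (0.00063), and for Lrp2, r was 0.66 (0.00998) and rho 0.59 (0.0468). The unadjusted p of 2e-05 behind 4 of the values of r is the smallest that 100000 permutations can give. Without the 2 embryos farthest from the median of Apoa1, wild-type control replicate 1 and wild-type high-fat replicate 3, r ran from 0.72 for Lrp2 to 0.95 for Cldn2. Within array set A r ran from 0.63 (Lrp2) to 0.99 (Hnf4a), and within set B from 0.73 (Lrp2) to 0.98 (Amn). Ttr reached 0.95 in set A and 0.94 in set B, both above its pooled value. Since the list was drawn up with the shared order known, these values describe it and add no independent evidence.

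Embryos without Cited2 had higher mean levels of every tested member than wild-type embryos, but no difference passed the test. Averaged over the diets, the log2 difference (knockout minus wild type, 6 embryos against 6) was above 0 for 26 of 26 members, with a median of 0.67 and a range of 0.13 to 1.26. Over all tested genes the median was 0.001 and 50.5% were above 0. These counts cover only members that passed the filter, 8 of them through some of the arrays, so they describe the list and are no test of it. In limma's fit across 19595 probes, 0 of 26 members passed an adjusted p of 0.05, where 0.0836% of all tested genes did (9 of 10764), and the smallest adjusted p of a member was 1.00. Without adjustment 3 had p under 0.05, namely Lrp2, Dab2 and Tmprss2, beside 3.61% of all tested genes (389 of 10764). The other 2 tested Dab2 probes had unadjusted p of 0.443 and 0.445 in limma's fit. All 26 members had overlapping knockout and wild-type values, and 0.0929% of tested genes had every knockout above every wild-type embryo.

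The highest differences were in Apoa1, Amn and Apoa4. Apoa1 was at 11.24 ± 1.25 (SD, n = 6) in knockouts and 9.98 ± 1.81 in wild-type embryos, a log2 difference of 1.26 ± 0.81 (SE). The difference was 1.07 ± 0.66 for Amn and 1.05 ± 0.80 for Apoa4. The smallest were in F2, 0.13 ± 0.19, Vil1, 0.28 ± 0.51, and Lrp2, 0.30 ± 0.13, so that Lrp2 had a small difference beside a small error. Within array set A, with 3 embryos of each genotype, the median difference of the members was 0.02, with 16 above 0 and 10 below. Within set B it was 1.80, with 26 of 26 above 0. Without knockout high-fat replicate 3 the median was 0.31, without knockout control replicate 3 it was 0.38, and the values with each of the 12 embryos left out in turn ran from 0.31 to 0.89.

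**Figure D4:**
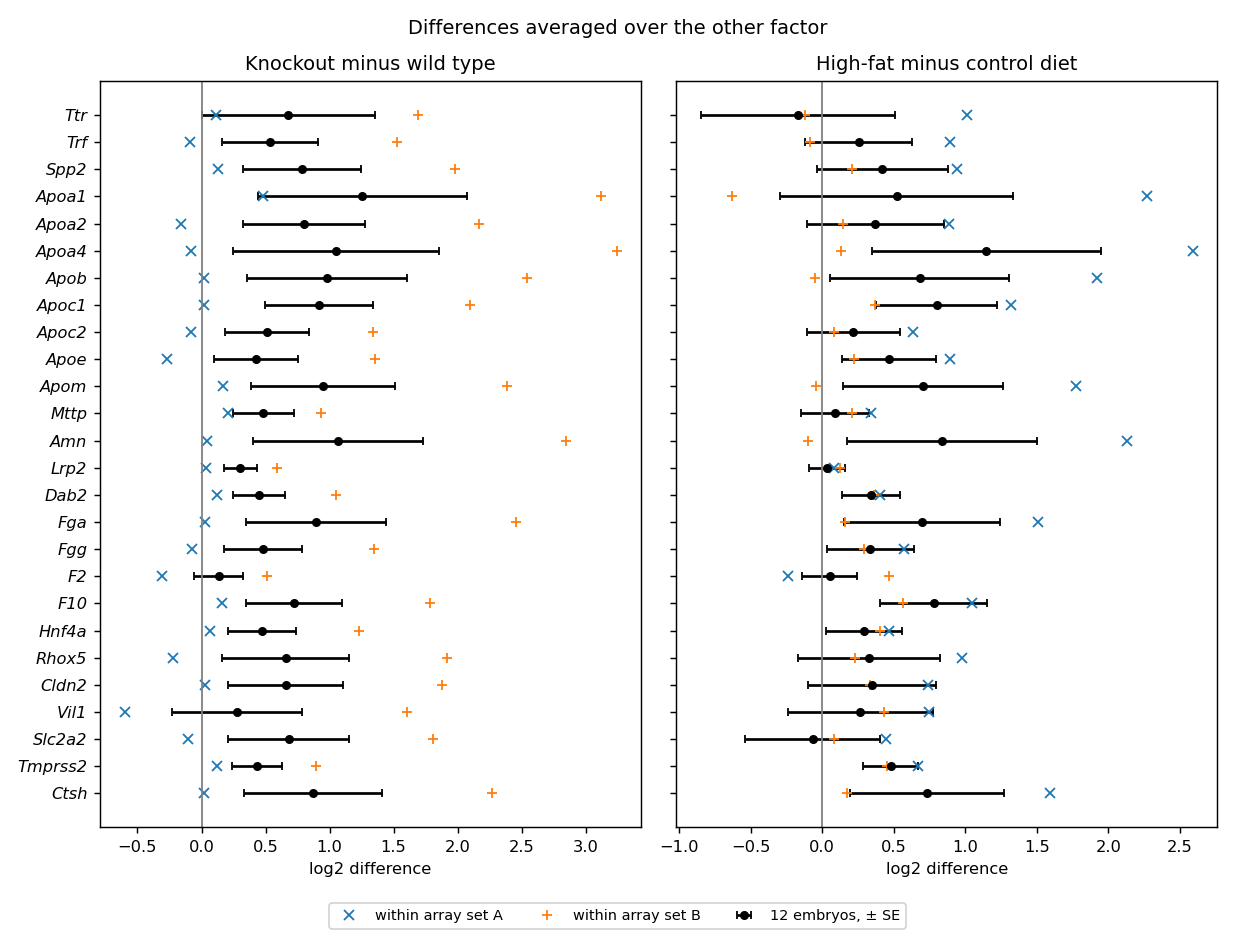
Log2 difference (horizontal axes) of each of the 26 tested members (rows), knockout minus wild type on the left and high-fat minus control diet on the right, with black points and bars for the value over 12 embryos ± SE, and crosses and plus signs for the values within array sets A and B. For genotype the set B values lie to the right of the set A values in each row, with medians of 1.80 and 0.02, and for diet the medians are 0.19 in set B and 0.89 in set A.

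A high-fat maternal diet, averaged over the genotypes, gave a smaller median difference than genotype when both array sets were pooled. Of the 26 members 24 were above 0 (high-fat minus control) and 2 below, with a median of 0.36, while 59.8% of all tested genes were above 0 with a median of 0.05. In limma's fit 0 of 26 passed, as did 0% of all tested genes, with a smallest adjusted p of 0.413 among members and 1 member, Tmprss2, with unadjusted p under 0.05, where 12.5% of tested genes had one. Apoa4 had a difference of 1.15 ± 0.80 (SE), Amn of 0.84 ± 0.66 and Apoc1 of 0.80 ± 0.42. The lowest were Ttr at -0.17 ± 0.68, Slc2a2 at -0.07 ± 0.47 and Lrp2 at 0.03 ± 0.13. Slc2a2 was detected in only 1 high-fat and 3 control embryos, so its value lies near background. Set A held more high-fat embryos and set B more control-diet ones, so the pooled difference is partly mixed with the set. The median was 0.89 within set A, with 25 above 0, and 0.19 within set B, with 20 above 0. Within set A it was thus above the genotype median of 0.02, and within set B below that of 1.80. Single embryos moved the pooled diet median by over 1.5 times. It was 0.12 without knockout high-fat replicate 3, 0.17 without wild-type high-fat replicate 1 and 0.22 without knockout control replicate 1. It was 0.58 without knockout high-fat replicate 1, 0.57 without wild-type high-fat replicate 3 and 0.61 without knockout control replicate 3.

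On the control diet alone, knockout minus wild type (3 against 3) was above 0 for 26 of 26 members, with a median of 0.77, and 53.3% of all tested genes were above 0. In limma's fit 0 of 26 passed, against 0.0465% of tested genes, and 1 member, Lrp2, had unadjusted p under 0.05, as did 1.46% of tested genes. For Lrp2, Dab2 and F10 all 3 knockouts lay above all 3 wild-type embryos, which is 3 of 26 members, where 2.19% of tested genes did so. Lrp2 was at 10.71 ± 0.31 (SD, n = 3) against 10.23 ± 0.04, a difference of 0.47 ± 0.18 (SE), Dab2 differed by 0.49 ± 0.28 and F10 by 0.94 ± 0.53. F10 was detected in only 1 of the 3 wild-type embryos. The largest difference was that of Apoa1, 1.62 ± 1.15, and the smallest that of F2, 0.09 ± 0.27. Within set A, with 1 embryo of each genotype, the median was 0.32, and within set B, with 2 of each, it was 1.00. The median was 0.32 without knockout control replicate 3, 0.47 without wild-type control replicate 1 and 1.17 without knockout control replicate 1.

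On the high-fat diet the same contrast was above 0 for 26 of 26 members, with a median of 0.54, where 49.4% of all tested genes were above 0. By limma 0 of 26 members passed, against 0.00929% of tested genes, and 0 had unadjusted p under 0.05, where 3.68% of tested genes did. Apob had the largest difference, 1.15 ± 0.89 (SE), and Lrp2 the smallest, 0.13 ± 0.18. Slc2a2 was not detected in any wild-type high-fat embryo and in only 1 knockout high-fat embryo, so no fold is given for it. The sign of the list depended on the array set, with a median of -0.43 in set A, where 24 of 26 were below 0, and 2.59 in set B, where there was 1 embryo of each genotype. Without knockout high-fat replicate 3 the median was 0.05, without wild-type high-fat replicate 3 0.13, without knockout high-fat replicate 1 0.91 and without wild-type high-fat replicate 1 0.92.

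The diet contrast in wild-type embryos was above 0 for 25 of 26 members, with a median of 0.38, where 60.4% of all tested genes were above 0. In limma's fit 0 of 26 passed, as did 0% of tested genes, and 0 had unadjusted p under 0.05, where 3.75% of tested genes did. Lrp2 alone had high-fat values all above the control values, in 1 of 26 members, where 4.57% of tested genes did so, with a difference of 0.21 ± 0.18 (SE). The difference was 1.38 ± 1.13 for Apoa4, the highest, although 1 embryo of each diet was undetected for it. The 1 member below 0 was Slc2a2, which was detected in only 1 of these 6 embryos, so no difference is given here. The median within set A was 1.26, and within set B -0.61. Set A held a single wild-type control-diet embryo, replicate 1, and set B a single wild-type high-fat embryo, replicate 3. The median over both sets was 0.08 without wild-type high-fat replicate 1, 0.24 without wild-type control replicate 1, 0.79 without wild-type control replicate 3 and 0.75 without wild-type high-fat replicate 3.

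In knockout embryos the diet contrast was above 0 for 22 of 26 members, with a median of 0.30, where 57.5% of all tested genes were above 0. Of the 26, 0 passed in limma's fit, as did 0% of tested genes, and 0 had unadjusted p under 0.05, where 6.76% of tested genes did. Apoa4 differed by 0.91 ± 1.13 (SE) and Ttr by -0.57 ± 0.96. The median within set A was 0.48, and within set B 1.06. Set A held a single knockout control-diet embryo, replicate 1, and set B a single knockout high-fat embryo, replicate 3. The median over both sets was -0.02 without knockout control replicate 1, -0.19 without knockout high-fat replicate 3, 0.49 without knockout high-fat replicate 2, 0.75 without knockout high-fat replicate 1 and 0.79 without knockout control replicate 3. The interaction, the diet effect in knockouts minus that in wild-type embryos, was above 0 for 8 members and below for 18, with a median of -0.10 against -0.02 over all tested genes, of which 45.3% were above 0. Again 0 of 26 passed in limma, as did 0% of tested genes, and 0 had unadjusted p under 0.05, where 0.985% of tested genes did. It was 0.41 ± 0.66 for Apoe and -0.92 ± 0.92 for Spp2. The median interaction was -0.62 within set A and 1.58 within set B, and both rest on the same single embryos of each genotype. Every embryo moved this median by over 1.5 times when left out, and it then ran from -0.74 to 0.29. The comparisons share embryos, so their directions are not independent of each other.

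Other gene lists were set beside the members, each by its count and median for knockout minus wild type averaged over the diets, and 0 genes of them passed in limma's fit save 1 in the neural tube list. The list nearest to the members was that of other yolk sac endoderm products. Of its 25 genes 13 were tested, 13 of 13 were above 0, and the median was 0.40. Pdzk1, a scaffold of apical transporters, differed by 0.91 and Slc39a5, a zinc transporter, by 0.69. Of the 13, 9 had a correlation over 0.7 with the mean of the standardised members, where 2.08% of all tested genes did. The median deviation of these 13 genes was 1.14 in knockout high-fat replicate 3 and 0.62 in wild-type high-fat replicate 1, and -0.69 in wild-type high-fat replicate 3, the embryos at both ends for the members. A further 9 of the 25 had a probe but no detection on any array. The 13 tested genes summed, on the linear scale, from 10029 to 12020 in wild-type control-diet embryos, 9561 to 13902 in wild-type high-fat embryos, 10189 to 12669 in knockout control-diet embryos and 12308 to 14929 in knockout high-fat embryos, and their part in the members' differences was not tested. Most of each sum was Gpc3, with mean log2 signals of 13.22 in knockouts and 13.16 in wild-type embryos. Gpc3 correlated with the member mean at 0.34, so these sums say little about the other genes of the list.

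The transcription factors of visceral endoderm were flatter. Of 12 listed 10 were tested, with 7 above 0 and a median of 0.22, and Foxa3 differed by 0.51 and Klf5 by 0.40. The 14 tested partners in endocytosis and lysosomes had a median of 0.07, with 10 above 0, led by Lgmn, an asparagine-specific protease of the lysosome, at 0.33 and Myo6, a motor of apical endocytosis, at 0.30. Of the 7 tested partners in lipoprotein assembly the median was -0.04, with Pltp at 0.16 and Vldlr at -0.15. Median correlations with the member mean were 0.86 for the yolk sac products, 0.22 for the transcription factors, 0.41 for the endocytosis partners and -0.14 for the lipoprotein partners.

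Markers of other cells that a dissected embryo could carry were read the same way, each as a whole list. Of 11 parietal endoderm genes 7 were tested, with a median of 0.03 (Pth1r at 0.29 and Sparc at 0.30). Of 13 trophoblast genes 5 were tested, with a median of 0.18 (Prl2c2 at 1.07 and Rhox9 at 0.36), and 4 were detected on no array. The median deviation of those 5 was highest in knockout high-fat replicate 3 (0.95) and wild-type high-fat replicate 1 (0.61), which were also high for the members, and -0.02 in knockout control replicate 3. Their correlation with the member mean had a median of 0.51, and Rhox6, with the highest, 0.84, was detected on 3 arrays. Of 9 decidual genes 2 were tested, with a median of 0.20 (Alpl at 0.22 and Hsd11b2 at 0.17), and 3 were detected on no array. Of 8 allantois and extraembryonic mesoderm genes 6 were tested, with a median of 0.06 (Vcam1 at 0.50 and Ahnak at -0.13). Of 12 gut endoderm genes 11 were tested, with a median of 0.05 and 6 above 0 (Trh at 0.80 and Pyy at -0.89). Each of these medians was below that of the members, 0.67, and the part of these lists in the members' differences was not tested.

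The erythroid list had another order of embryos. Of 10 primitive erythroid genes 7 were tested, and 7 of 7 were below 0 for genotype, with a median of -0.35 (Hbb-bh1 at -0.84 and Hba-x at -1.26). Their median deviation was 1.11, 1.55, 1.16 and 1.49 in wild-type control replicates 2 and 3, wild-type high-fat replicate 1 and knockout high-fat replicate 3 in that order, so that 2 of the 3 embryos highest for the members were also high for erythroid genes while knockout control replicate 3 was at -0.74. Summed on the linear scale, the tested erythroid genes ranged from 423 to 7095 in wild-type control-diet embryos, 902 to 9981 in wild-type high-fat embryos, 341 to 2335 in knockout control-diet embryos and 935 to 9284 in knockout high-fat embryos. The tested members summed from 7502 to 17768 in wild-type control-diet embryos, 8047 to 28372 in wild-type high-fat embryos, 10468 to 35350 in knockout control-diet embryos and 13305 to 48583 in knockout high-fat embryos. The cardiac and neural lists ran the other way. Of 16 cardiac muscle genes 15 were tested, 14 of 15 were below 0, the median was -0.48 (Myl2 at -1.71 and Nppb at -0.95), and 0 of 15 correlated above 0 with the member mean, where 48.9% of tested genes did. The cardiac median deviation was -1.18 in knockout high-fat replicate 3, -0.79 in knockout high-fat replicate 2 and -0.34 in knockout control replicate 3, and the cardiac sums ran from 30922 to 34156 in wild-type control-diet embryos, 24333 to 32688 in wild-type high-fat embryos, 19452 to 36962 in knockout control-diet embryos and 11415 to 24768 in knockout high-fat embryos. Of 14 neural tube genes 9 were tested, 8 of 9 were below 0 with a median of -0.52 (En1 at -1.36 and En2 at -1.98), and En2, a midbrain-hindbrain factor, passed in limma's fit with an adjusted p of 0.00184. The part of these lists in the members' differences was not tested.

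**Figure D5:**
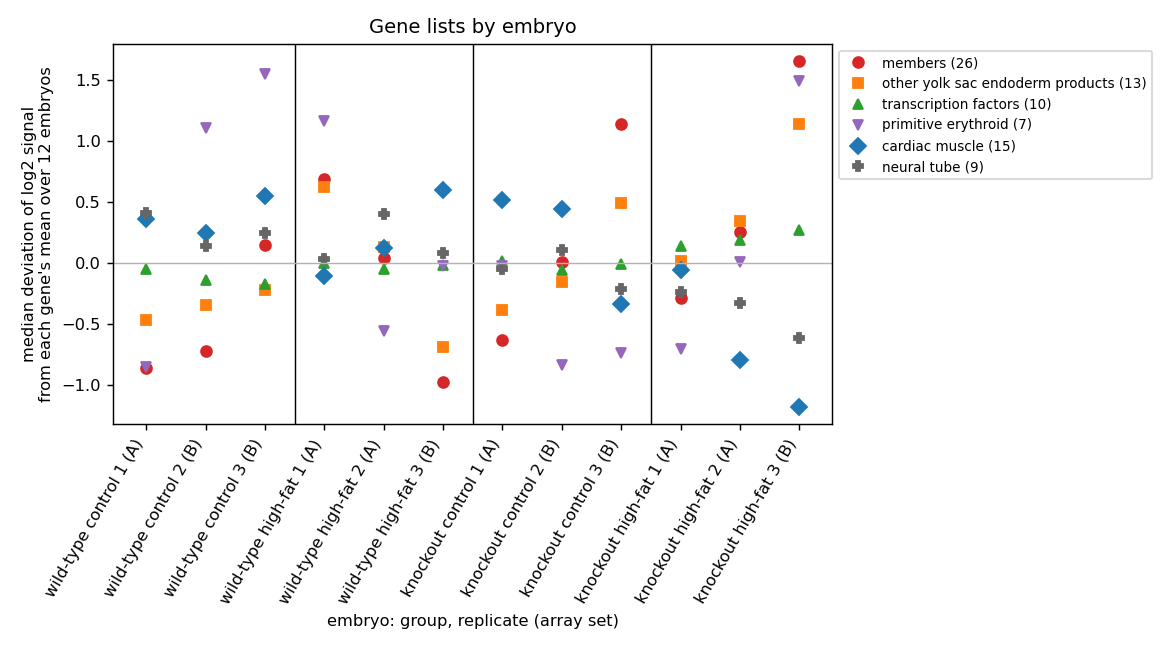
Median deviation of log2 signal from each gene's mean over the 12 embryos (vertical axis) for 6 gene lists, by embryo (horizontal axis, with the array set in brackets). The members and the other yolk sac endoderm products lie highest in knockout high-fat replicate 3 (1.65 and 1.14), where the cardiac muscle list lies lowest (-1.18).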

How the data were processed

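Total RNA of 12 embryos was hybridised to 1-colour Illumina mouse BeadChips. The deposited average signal is a bead intensity that the authors exported from BeadStudio 3.2.6, per the submitters' processing notes, beside a deposited standard deviation over beads and a deposited count of beads per probe. A detection p-value per probe stands in the deposited series table, and the deposited single-array tables hold it as a detection score, a fraction. The authors' processed log2 values, whose normalization the sources used here do not give, were used only as an alternative. Columns of other series numbered 0.

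Signals were normalized with neqc (limma 3.58.1, R 4.3.3, offset 16). Probes with detection p under 0.01 on 3 or more arrays (19595 of 45281) entered 1 model with a mean per group, lmFit and eBayes, with Benjamini-Hochberg adjustment over all of them and a threshold of 0.05. Platform annotation gave 1 symbol to 34885 probes, several to 18 and none to 10378. Errors of differences are the model's standard errors. In simulated data with 19595 probes, the genotype comparison recovered 85% of changes of 1 log2 unit and 97% of changes of 2, over probes at their own spread. The members spread more widely (median SD 0.94 against 0.22), so these shares do not carry over to them. Array sets were split on probes with signal over 500, a limit set after the data had been seen, and over all detected probes the split differed.

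The members, the other lists and the motifs were chosen with earlier results of these data known. Every embryo's values are given for 18 members fixed by role and for those with the 3 highest and 3 lowest differences in a comparison. Differences are given for 3 and 3 in the averaged effects and, narrowed after the data had been seen, for 1 and 1 in the others, plus those whose groups did not overlap. Of other lists the 2 genes with the largest genotype difference are named, and Gpc3 and Rhox6 besides. Alternatives were the authors' values, other background and scaling, other filters, array weights, array set and number blocks, all probes, and leaving out each embryo. The number of arrays limits precision.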

Additional observations from a re-analysis of the deposited data

Results flagged for a closer look

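Dab2, the clathrin adaptor of the endocytic receptors, had its highest value in knockout high-fat replicate 3, 12.32 log2 units, far above the other 5 knockout embryos. Its gap to the nearest of them, at 11.61 in knockout control replicate 3, was 0.655 of the range of the 6 knockouts, which is above the critical value of Dixon's test for 6 samples. Chance alone marks about 1 in 20 groups in this way, and the same embryo was highest for 25 of 26 tested members. The 6 knockouts pool both diets and both array sets, which Dixon's test does not allow for. The other tested Dab2 probes correlated with this one at only 0.51 and 0.41.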

How the results depend on the processing

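Adjusted p-values under 0.05 were absent among members in 170 of 172 combinations of a comparison and a processing choice. The exceptions came with array weights, where 3 members passed for diet averaged over genotypes, beside 6128 of 19595 probes (0 without weights), and 1 for diet in wild type, beside 1466. For diet averaged over genotypes Apoc1 passed, with a difference of 1.05 and an adjusted p of 0.0197 in limma. Medians moved by more than the spread between embryos (0.84) only within array sets, where the cause was not tested. They were 1.80 in set B for genotype averaged over diets, -0.43 in set A and 2.59 in set B for genotype on the high-fat diet, 1.26 and -0.61 for diet in wild type, and 1.58 in set B for the interaction. Single genes turned sign within set A for genotype (Apoa4 -0.081, Vil1 -0.60, F2 -0.31, F2 in control-diet embryos -0.59, and in high-fat embryos Apob -0.29 and Lrp2 -0.079). Vil1 was undetected in every knockout of set A and Apoa4 in wild-type control replicate 1, so these differences rest in part on undetected values. For diet, Ttr was 1.01 in set A and 0.45 with the set as a block, Slc2a2 was 0.081 in set B and 0.26 with the block, and Amn was -0.097 in set B. Slc2a2 was not detected on any array of set A, so no value is given for that set. Slc2a2 was also 0.0030 in the authors' values, 0.026 without background correction and 0.067 with median scaling, and Lrp2 was -0.0032 with array weights. For diet in wild type, Slc2a2 was 0.055, 0.064 and 0.14 under these 3 settings. It was 0.13 with array weights and 0.30 with the set as a block, but was detected in only 1 of the 6 wild-type embryos. Apoa4 was -1.78 for diet in wild type in set B, where it was undetected in the single high-fat embryo. For diet in knockouts, Ttr was 0.042 with the block, 0.21 in set A and 0.40 in set B. Spp2's interaction was 1.31 in set B, and Lrp2 for genotype on the high-fat diet was -0.094 with array weights.

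With each embryo left out in turn, signs turned for 9 named differences. For genotype averaged over diets Vil1 ran from -0.16 to 0.56 and F2 from -0.0072 to 0.26. In control-diet embryos F2 ran from -0.073 to 0.31, and in high-fat embryos Lrp2 from -0.049 to 0.23. For diet Lrp2 ran from -0.056 to 0.12, Slc2a2 from -0.45 to 0.25 and Ttr from -0.63 to 0.26. In wild type Slc2a2 ran from -0.27 to 0.37, and in knockouts Ttr from -1.49 to 0.17.

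The labels' replicate numbers recur in each group. Deviations of same-numbered embryos correlated between -0.26 and 0.68, and those of embryos sharing a title number between -0.53 and 0.37. Title pairs within the same array set correlated at 0.37 and 0.20, and those across the sets between -0.53 and -0.12. These correlations are mixed with the array set, so they cannot decide whether either number pairs the embryos. The main fit used neither number. With the replicate number as a block, 0 members passed in each comparison and the genotype median stayed 0.67, while for diet averaged over genotypes 338 of 19595 probes passed (0 without it). With the title number as a block, fixed or random (consensus correlation -0.11), 0 passed as well, and fixed blocks give no diet effect because each number belongs to 1 diet. Differences of the 8 members that were dim on some arrays rest in part on undetected values, and Slc2a2 was detected on 4 arrays.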

Other observations

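Outside the lists, some tested genes had almost the same order of embryos as the members. Over the 12 embryos and with no p, since the comparison is with the members' own pattern, the 10 genes with the highest correlation with the mean of the standardised members had r from 0.96 to 0.98. They were Lgals2, a galectin, Cfi, a complement regulator, Slc7a9, an amino acid transporter subunit, Slc23a3, Reep6, Car7, a carbonic anhydrase, 2610528J11Rik, Fmr1nb, Slc13a4, a sulfate transporter, and Tmem125. Lgals2 measured 4.89, 5.44 and 6.04 in the wild-type control-diet embryos, 7.12, 5.86 and 5.21 in the wild-type high-fat embryos, 5.62, 6.31 and 7.62 in the knockout control-diet embryos and 5.44, 6.36 and 8.00 in the knockout high-fat embryos. Lgals2 was highest in the knockout replicates numbered 3 and in wild-type high-fat replicate 1, as were the members. Of the 26 members 21 had r over 0.9 with this mean, to which each contributes, and 0.604% of tested genes did (65 of 10764). At the other end, Tmem45a had r of -0.92, Cebpg of -0.92 and Klc1 of -0.89. Tmem45a measured 5.81, 5.76 and 5.52 in the wild-type control-diet embryos, 5.28, 5.49 and 5.74 in the wild-type high-fat embryos, 5.46, 5.30 and 4.95 in the knockout control-diet embryos and 5.35, 5.47 and 4.93 in the knockout high-fat embryos. The points share the 12 embryos and their 2 array sets.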
